A study of Danio rerio with 3 samples.

Results

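miR-122 was followed in small RNA libraries of whole zebrafish larvae, through 4 of the 1202 distinct mature sequences in the three-library table. The members were the sequences with miR-122 in their name, whatever the arm, end form or species prefix. They filled 6 rows, and rows with the same sequence were counted once. The larvae (F1, wild type, AB strain) were collected whole at 7 days after fertilisation (dpf). Their parents (F0) had been kept for 90 days, from 6 hours after fertilisation, in 0, 6.25 or 12.5 mg/L of DKA, a mixture of β-diketone antibiotics. The mixture held 6 drugs in equal parts, 3 tetracyclines (oxytetracycline, doxycycline and chlortetracycline) and 3 fluoroquinolones (enrofloxacin, ciprofloxacin and ofloxacin, written ofluoxacin in the labels). Each dose had 1 library, and the number of larvae or parents behind it was not given in the sources used here. Differences below were therefore not checked in replicates and hold for these libraries alone. The library of parents at 0 mg/L is called control.

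miR-122 is the classical miRNA of the liver. In vertebrates it is made mainly by hepatocytes, where liver transcription factors drive its gene and where it is among the most abundant miRNAs. In mammals it represses genes that mature hepatocytes keep low and is tied to cholesterol and fatty acid metabolism. Its hairpin gives a 5p arm, which is the usual guide strand, and a 3p arm, which is mostly discarded. The seed, bases 2 to 8 of the mature sequence, sets which messages a miRNA pairs with.

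The leading 5p sequence, the leading 3p sequence and the longer 5p form are shown because they carry the comparisons of arms and end forms. They are written 5′ to 3′ as in the deposited table, with T for U and the seed in capitals. The prefix of each name gives the species whose miRNA it matched (dre zebrafish, ssa Atlantic salmon, fru the pufferfish fugu). After the name, R gives how many nt the 3′ end is longer (+) or shorter (-) than in the annotated form, and L does so for the 5′ end.
dre-miR-122_R+1: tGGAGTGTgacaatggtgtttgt
fru-miR-122_R+2: tGGAGTGTgacaatggtgtttgat
ssa-miR-122-2-3p_L+1R-1: aAACGCCAttatcacactaaat

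The 5p forms share their first 22 bases and so their seed, and they differ at the 3′ end alone. The sources used here do not say whether the count under a name pools other end forms, so shares of end forms below are of the sequences as listed. The main form is 23 nt long and the longer form 24 nt. The annotated zebrafish form, 22 nt by the R+1 mark, is not among the miR-122 sequences listed. The 3p form of 22 nt starts 1 nt earlier than the salmon annotation, which moves its seed by 1 base. A further 3p sequence of 21 nt carries a mouse name and the substitution A20T (position 1 is the 5′ base of the read), and it shares its first 19 bases and its seed with the salmon-named one. No sequence outside the 4 members held either seed at bases 2 to 8. Laid antiparallel without gaps, the main 5p and the leading 3p sequence have 21 bases opposite each other. Of these, 17 form Watson-Crick pairs, 1 a G-U pair, and 3 do not pair. The 5p sequence then extends 2 nt beyond the duplex at its 3′ end and the 3p sequence 1 nt. In the RefSeq gene table of the assembly GRCz12tu, which is not the authors' build (Zv9, per the submitters' processing notes), there is 1 mir122 gene. It lies within the span of a long non-coding RNA gene, LOC141379988, and its nearest protein-coding neighbours are alpk2 and nedd4l.

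Counts per library summed to 4534557 in control, 5099264 at 6.25 and 6041242 at 12.5 mg/L. The authors scaled them by 1 factor per library, 1.18, 1.02 and 0.709 in that order, and levels below are these normalised reads. All intervals are 95% exact intervals that cover counting error only, since each dose had 1 library. They treat reads as independent, which PCR copies of 1 molecule are not, so they may be too narrow even for that error. The labelled tissue is the whole body, and sequences of other tissues were present as well. In normalised reads over the 3 libraries, those of the muscle families miR-1, miR-133, miR-206 and miR-499 summed to 122579 to 136609. The neuronal families miR-9, miR-124, miR-128 and miR-137 summed to 328916 to 389961, and the pancreas families miR-216, miR-217 and miR-375 to 54458 to 67371. The red blood cell families miR-144 and miR-451 summed to 2352 to 3725. Most of the muscle sum was 1 sequence, miR-133a-3p, at 111353 to 115249. The leading sequences of miR-1 and miR-206 were scarcer and carry a substitution. The leading miR-451 sequence had 1.02 to 2.84, so the red blood cell sum was nearly all miR-144. In whole larvae, fewer liver cells and less miR-122 per cell cannot be told apart.

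miR-122 was most abundant in the larvae of parents at 6.25 mg/L and least abundant in those of parents at 12.5 mg/L. The main 5p sequence had 18653 normalised reads in control, 24393 at 6.25 and 12901 at 12.5 mg/L. The middle dose thus stood above control and the high dose below it, so the levels were not in dose order. It ranked 49th, 41st and 56th of the 1202 sequences in these libraries. Of all counts it took 0.349% (0.343 to 0.354) in control, 0.468% (0.462 to 0.474) at the middle dose and 0.301% (0.297 to 0.306) at the high dose. None of these 3 intervals overlaps another, but they cover counting error alone and are narrow because the counts are high. Before scaling, the counts were 15812, 23877 and 18196, so the position of the 12.5 mg/L library below control rests on dividing by library size.

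**Figure D1:**
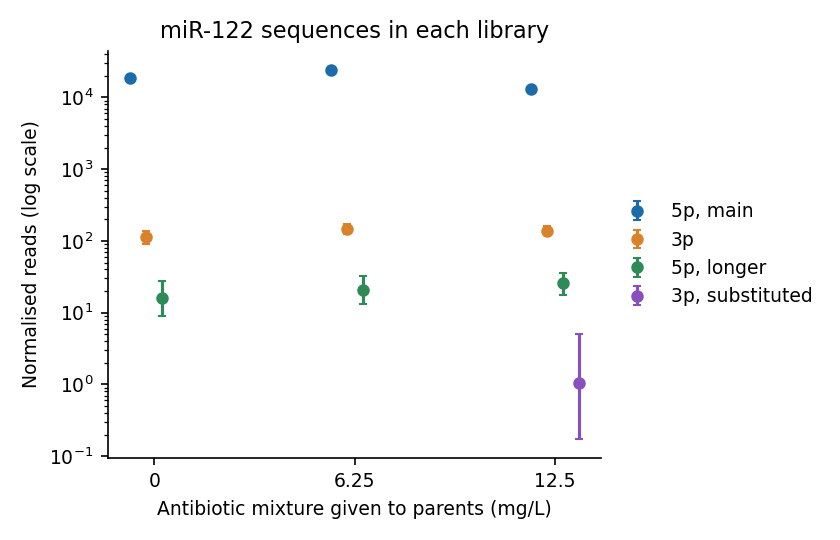
Normalised reads (log scale) of the 4 miR-122 sequences in the library of each parental dose, with 95% exact Poisson intervals for counting error; a sequence at 0 is not drawn. The main 5p sequence, from 12901 to 24393, lies far above the others in each library and is lowest at 12.5 mg/L.

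At 6.25 against 0 mg/L the main 5p sequence was 1.31-fold higher (ratio interval 1.28 to 1.33). In the 12.5 mg/L library it was 1.45-fold lower than in control (ratio 0.692, interval 0.677 to 0.707). These ratios share the 0 mg/L library. Between the doses, at 12.5 against 6.25 mg/L, it was 1.89-fold lower (ratio 0.529, interval 0.519 to 0.539). The direction of each was the same under the 3 scalings tried, and the size was not. With libraries scaled to equal totals the log2 ratio at 12.5 against 0 mg/L was -0.21, where the authors' scaling gave -0.53. In the authors' deposited table the Fisher p-value of the main sequence was 1e-214 for 6.25 against 0 mg/L and 2.55e-36 for 12.5 against 0 mg/L. Those p-values compare pairs of libraries, not conditions. Whether raw or scaled values entered them is not given by the headers, so they need not belong to the ratios above.

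The 471 sequences with a mean of at least 10 normalised reads give the scale for these ratios, and 3 of the 4 miR-122 sequences were among them. The log2 ratios were taken with a pseudocount of 1, which understates differences of scarce sequences. At 6.25 against 0 mg/L, 5.1% of the 471 were at least 2-fold different, and 0 of the 3 miR-122 sequences were. At 12.5 against 0 mg/L the background was 15.1%, and at 12.5 against 6.25 mg/L it was 14.4%, again with 0 of 3. Within that background the main 5p sequence lay in the upper part at the middle dose, where 95 sequences had a higher log2 ratio (0.39 against a median of 0.11 over all 471). At 12.5 against 0 mg/L, 63 of 471 (13.4%) lay below it. At 12.5 against 6.25 mg/L its log2 ratio of -0.92 was near the low end, with 21 of 471 (4.46%) below it. A position in the ranking is little affected by the scaling, which shifts all sequences together.

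**Figure D2:**
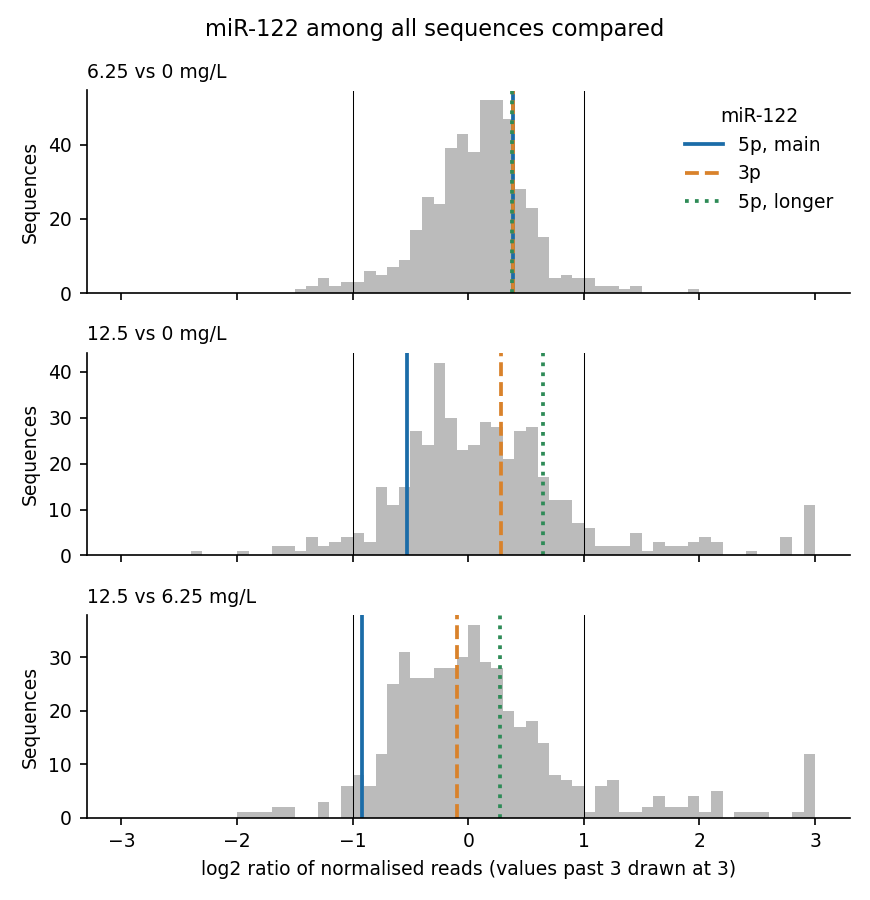
Number of sequences (y) by log2 ratio of normalised reads (x) for the 471 sequences compared in each pair of libraries, with coloured lines at the miR-122 sequences and thin black lines at 2-fold. The 3 miR-122 lines coincide near 0.38 at 6.25 against 0 mg/L and spread apart in both comparisons with the 12.5 mg/L library, where the main 5p sequence lies at -0.53 and -0.92.

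The 3p arm was scarce and did not follow the main 5p sequence at the high dose. The salmon-named 3p sequence had 113 normalised reads in control, 148.1 at 6.25 and 138 at 12.5 mg/L, from 96, 145 and 195 counts. The control library was the lowest for this arm, and the dosed libraries were close to each other. At 6.25 against 0 mg/L the 3p sequence was 1.31-fold higher (interval 1.00 to 1.71), the same ratio as the main 5p sequence. Its ratio at 12.5 against 0 mg/L was 1.22 (0.951 to 1.58), an interval that includes 1. With equal library totals that ratio was 1.52 (1.19 to 1.97), above 1, so whether the 3p sequence exceeded control depends on the scaling. The authors' deposited table gives it a Fisher p-value of 0.000919, which compares these libraries. The header names the test but not whether raw or scaled values entered it, so the p-value need not belong to the ratio of 1.22. At 12.5 against 6.25 mg/L the ratio was 0.933 (0.749 to 1.17), and with equal library totals the log2 ratio of the summed 3p sequences turned from -0.09 to 0.19. The mouse-named 3p sequence had 0 counts at 0 and 6.25 mg/L, which allows up to 3.54 and 3.06 normalised reads (3 counts). It had 1.5 counts at 12.5 mg/L, within the same limit, so no ratio is given for it.

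The use of the arms within a library does not depend on the scaling. The 3p sequences made up 0.603% of miR-122 counts in control (0.489 to 0.736) and 0.603% at the middle dose (0.509 to 0.709). At the high dose they made up 1.07% (0.926 to 1.23). The first of these shares are alike to 3 digits, and the share at 12.5 mg/L lies above both intervals. For each 3p read there were 165 reads of the 5p arm in control and at the middle dose, and 92.8 at the high dose. The ratio of 3p to 5p reads was thus 1.78 times that of control at 12.5 mg/L (interval 1.39 to 2.30) and 1.00 times at 6.25 mg/L (0.767 to 1.31).

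The longer 5p form showed a like shift. It had 15.9 normalised reads in control, 20.9 at 6.25 and 25.5 at 12.5 mg/L, from 13.5, 20.5 and 36 counts. It was highest at 12.5 mg/L, where the main form was lowest. Of the 5p counts it took 0.0853% in control (0.0484 to 0.148), 0.0858% at the middle dose (0.0544 to 0.134) and 0.197% at the high dose (0.138 to 0.273). The ratio of longer to main form was 2.32 times that of control at 12.5 mg/L (interval 1.18 to 4.49), from few counts, and 1.01 times at 6.25 mg/L (0.482 to 2.11). The sequence with these fractional counts is listed in 2 rows, under a fugu and a salmon name. If the fractions are reads split between these rows, their sum counts the form in full, and its shares are then 0.170%, 0.171% and 0.394%. The longer form alone was 1.60 times control at 12.5 mg/L (0.813 to 3.10) with the authors' scaling, an interval that includes 1. With equal library totals it was 2.00 times control (1.02 to 3.87), a log2 ratio of 0.96 with the pseudocount. Whether the interval of the longer form lay above 1 thus depends on the scaling. These intervals use the counts of 1 of the 2 rows, and none was computed on the summed rows.

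**Figure D3:**
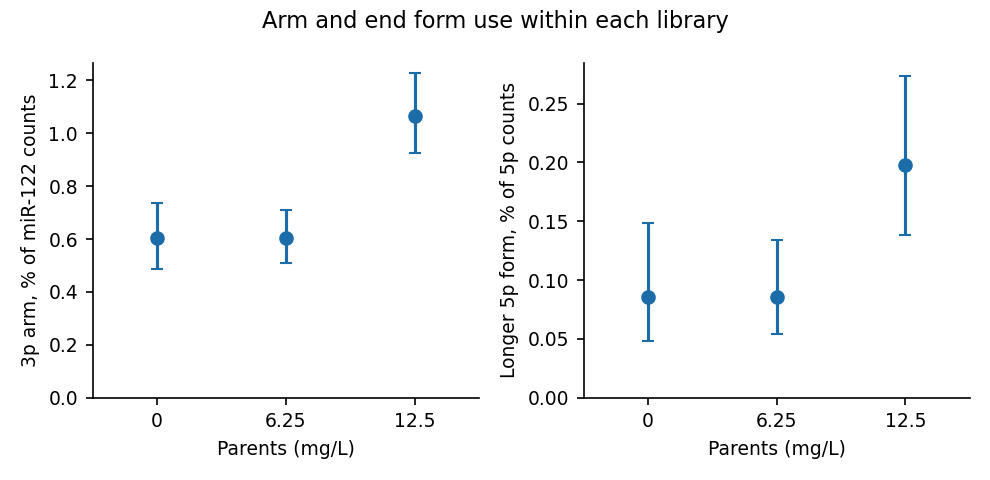
Share of miR-122 counts on the 3p arm (left, percent of all miR-122 counts) and of 5p counts in the longer form (right, percent of 5p counts) by parental dose, with 95% exact binomial intervals. The points at 0 and 6.25 mg/L lie at the same height, 0.603% on the left, and the point at 12.5 mg/L lies higher in both panels.

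Other miRNAs also differed in arm use between these libraries. There were 75 other miRNAs whose names give both arms and whose scarcer arm, by counts over the 3 libraries, had at least 10 counts in each. Sequences named without an arm, such as the leading one of miR-192, were left out of these pairs, and substituted reads were included. By this rule the scarcer arm of miR-192 held 61.5% of its pair in control, and that of miR-206 54.8%. The arms of miR-122 were instead assigned by sequence, since its main sequence is named without an arm. The 75 pairs are thus a rough background. At 12.5 against 0 mg/L the log2 change of scarcer over more abundant arm had a median of 0.12 over these 75, with quartiles of -0.48 and 0.48. miR-122 stood at 0.83, and 8 of the 75 lay above it. Counting both directions, 17 of 75 had a change at least as large. At 6.25 against 0 mg/L the median was -0.06, and miR-122 stood at 0.00.

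**Figure D4:**
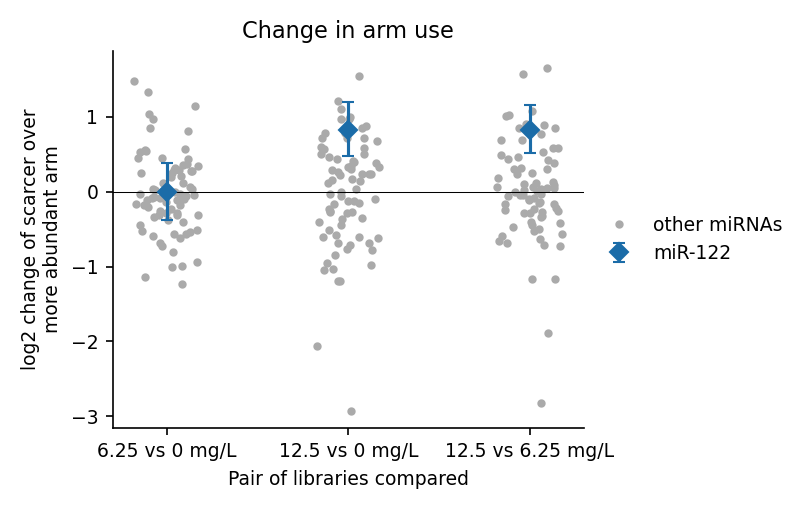
The log2 change of the scarcer over the more abundant arm (y) for each pair of libraries (x), with 1 grey point for each of 75 other miRNAs, paired by the arm in their names, and miR-122, paired by sequence, in blue with its 95% exact interval. miR-122 lies at 0.00 at 6.25 against 0 mg/L and at 0.83 in both comparisons with the 12.5 mg/L library, inside the spread of the other miRNAs.

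The longer 5p form is one of the sequences extended by 2 nt or more at the 3′ end, and these differed between libraries too. Among sequences without a substitution and outside miR-122, those marked R+2 or longer numbered 48 and had a median log2 ratio of 0.42 at 12.5 against 0 mg/L, with 31 above 0. At 6.25 against 0 mg/L their median was -0.31, with 14 above 0, while the longer miR-122 form had a log2 ratio of 0.37. The 136 sequences with no 3′ mark had medians of -0.08 and 0.12 in the same comparisons, and the 59 marked R+1 of 0.01 and 0.12. The 52 marked R-1 or shorter had medians of -0.004 and 0.18. The salmon-named 3p sequence of miR-122 carries such a mark and was at 0.29 and 0.38. Names of other species, which the longer 5p form and the 3p sequences carry, had a median of 0.24 at 12.5 against 0 mg/L over 77 such sequences. At 6.25 against 0 mg/L their median was -0.13, with 32 above 0, while the salmon-named 3p sequence of miR-122 was at 0.38. The 218 sequences with zebrafish names had medians of -0.03 at 12.5 and 0.15 at 6.25 against 0 mg/L. All sequences with names of other species, with scarce, substituted and miR-122 ones included, took 2.76%, 3.41% and 4.12% of all counts at 0, 6.25 and 12.5 mg/L. The part of these shifts in the miR-122 shares was not tested.

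Of the liver-linked miRNAs, which are known from liver but found in other tissues too, the leading sequences of miR-192, miR-33b-3p and miR-101b had the same order of libraries as miR-122 with the authors' scaling. miR-192, an epithelial miRNA of liver, intestine and kidney, had 222060 normalised reads in control, 269097 at 6.25 and 181383 at 12.5 mg/L. Like miR-122 it was highest at the middle dose and lowest at the high dose, with log2 ratios to control of 0.28 and -0.29. With equal library totals the latter was 0.029, so its position below control depends on the scaling. miR-33b-3p belongs to a family that in mammals lies in the genes of the sterol-regulating SREBP factors. Usually taken as the passenger arm, it was by mean the most abundant of the 3 miR-33 sequences listed here. Read with a substitution, it had 3520 normalised reads in control, 4143 at 6.25 and 2717 at 12.5 mg/L, and its directions held under the 3 scalings. miR-101b with a substitution had 13889, 14278 and 9562. Its excess over control at the middle dose was small (log2 ratio 0.04) and turned to -0.042 with the median-of-ratios scaling.

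The order differed in the other 4 families above the minimum level. miR-22a-3p, a broadly expressed miRNA, had 125747, 113731 and 82016 normalised reads, highest in control. miR-148 had 4981, 4855 and 3559. Both were lowest at 12.5 mg/L, as miR-122 was, and neither was above control at 6.25 mg/L, where the direction of miR-148 depends on the scaling. miR-194-5p, which shares a genomic cluster with miR-192, had 20453, 22465 and 22671, and a substituted miR-365 had 115, 140 and 215.9, so that both were highest at 12.5 mg/L. For miR-194-5p the difference from the 6.25 mg/L library (log2 ratio 0.013) was -0.022 with the median-of-ratios scaling. miR-378 was below the minimum level, at 13.0, 5.11 and 11.3.

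Over the list, 19 of 32 sequences of these 8 families passed the minimum. At 6.25 against 0 mg/L 13 of the 19 were above 0 and 6 below, with a median log2 ratio of 0.04 beside 0.11 over all 471, and 0 were at least 2-fold different. In the comparison of 12.5 with 0 mg/L 9 were above 0 and 10 below, with a median of -0.10 beside 0.08. That median was 0.22 with equal library totals and -0.22 with the median-of-ratios scaling, so its direction depends on the scaling. At 12.5 against 6.25 mg/L the median was -0.32 beside 0.00, and -0.04 with equal totals. In each comparison with the 12.5 mg/L library, 2 of 19 were at least 2-fold higher and 0 lower. Over all 471 sequences, 10.8% were at least 2-fold higher at 12.5 than at 0 mg/L and 11% at 12.5 than at 6.25 mg/L, so the list was near this background.

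The pancreas, which like the liver arises from the endoderm, gave a mixed picture. miR-216b of the exocrine pancreas had 36934, 46650 and 39561 normalised reads and the islet miRNA miR-375 2457, 3095 and 2793, both highest at 6.25 mg/L and above control at 12.5 mg/L. miR-217, also of the exocrine pancreas, had 15301, 14098 and 9438, lowest at 12.5 mg/L. miR-216b and miR-375 were thus above control at 12.5 mg/L where miR-122 was below it, while miR-217 was below control as well. With the median-of-ratios scaling miR-216b was at -0.018 against control at 12.5 mg/L. With equal totals miR-216b and miR-375 were higher at 12.5 than at 6.25 mg/L (log2 ratios 0.045 and 0.13).

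**Figure D5:**
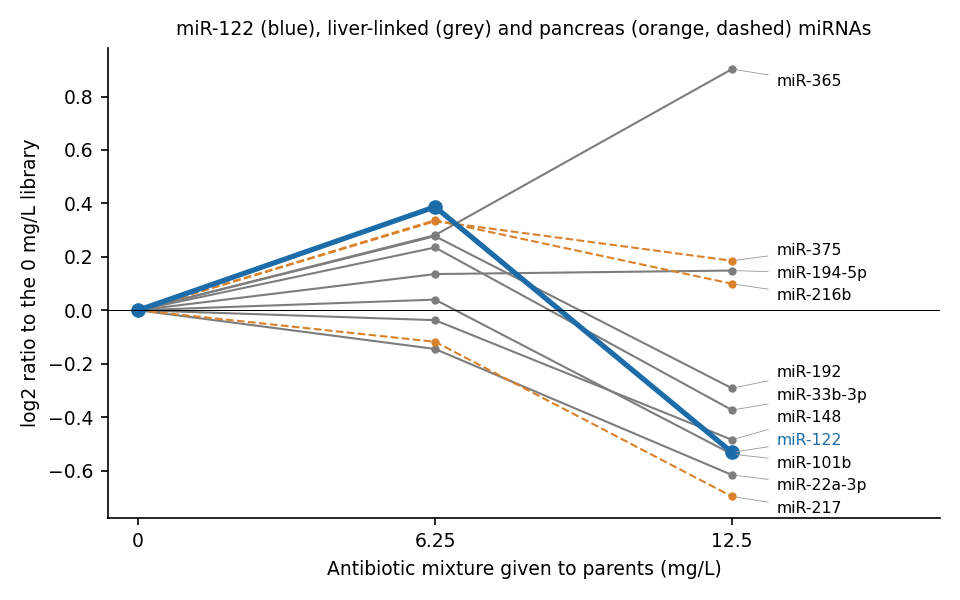
The log2 ratio of normalised reads to the 0 mg/L library (y) by parental dose (x) for the main miR-122 sequence (blue), the leading sequences of 7 liver-linked families (grey) and of 3 pancreas families (orange, dashed). miR-122 is the highest line at 6.25 mg/L (0.39) and is near the low end at 12.5 mg/L (-0.53), beside miR-101b and above miR-22a-3p and miR-217.

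A ratio of miR-122 to another sequence of the same library also needs no scaling between libraries. Against the leading sequences of the 7 liver-linked and 3 pancreas families above the minimum, the ratio at 6.25 mg/L was 1.04 to 1.45 times that at 0 mg/L. The counting interval lay above 1 for 8 of the 10. At 12.5 against 6.25 mg/L the ratio was 0.343 to 0.806 times, with all 10 intervals below 1. At 12.5 against 0 mg/L the ratios ran from 0.368 for miR-365 to 1.12 for miR-217, with 6 intervals below 1 and 2 above. Of the 471 sequences compared, 95 had a higher log2 ratio than the main miR-122 sequence at 6.25 against 0 mg/L. Those higher numbered 407 at 12.5 against 0 mg/L and 449 at 12.5 against 6.25 mg/L. The numbers of intervals above or below 1 are thus not particular to the liver-linked and pancreas families. The sequences of miR-101b, miR-33b-3p and miR-365 carry a substitution in their names. Whether such a sequence is that of another member of its family was not checked. The scarce miR-365 gave the lowest ratio in both comparisons with the 12.5 mg/L library. The next lowest were 0.524 for miR-194-5p against 6.25 mg/L and 0.608 for miR-375 against 0 mg/L. Relative to miR-192, miR-122 was 1.08 times control at 6.25 mg/L (1.06 to 1.10) and 0.847 times at 12.5 mg/L (0.828 to 0.866). The sign of the difference between 12.5 and 0 mg/L therefore depended on the sequence it was set against.

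Sequences were also ranked by the likeness of their profile to that of miR-122. Likeness was the distance between log2 profiles centred on their mean over the 3 libraries, among 188 zebrafish-named sequences without a substitution and with a mean of at least 100 reads. The leading sequences of miR-194-5p, miR-101b, miR-33b-3p and miR-365 were left out by this rule on names. The nearest was miR-219-5p, known from myelin-forming glia, at a distance of 0.025 on the log2 scale, where the median of the 188 was 0.62. It had 12090 normalised reads in control, 15792 at 6.25 and 8533 at 12.5 mg/L. Its log2 ratios of 0.39, -0.50 and -0.89 stood beside 0.39, -0.53 and -0.92 for miR-122. Next came shortened forms of miR-27b-5p (0.13; 320, 385 and 230 reads) and miR-218a (0.13; 236, 279 and 166). A shifted form of miR-10c-3p (0.14) had 716, 875 and 529 reads, and the maternal-clearance miRNA miR-430a-3p (0.15) had 757, 931 and 570. With 3 libraries such likeness is easily met and is given as a description.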

How the data were processed

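Small RNA of whole larvae was sequenced in 3 libraries, 1 per group, with TruSeq small RNA kits and single-end reads of 36 bp, per the labels' protocols. The deposited tables list a raw and a normalised value per sequence and library. The raw values, so named per the file headers, were deposited without a stated unit and were treated as estimated counts (expected counts), since 74.7% were whole numbers (tolerance 1e-09) and the rest fractions. The authors' normalised value is a signal equal to the count times 1 factor per library. Per the file headers, the tables deposited for pairs of libraries add a ratio (fold), its log2 and p-values. Aligner, miRNA database and counting were not given in the sources used here. All 4 tables, each with 1 emptied line, had 0 differing values among 14424 compared.

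Rows of the three-library table with the same sequence were kept once (1430 rows, 1202 sequences). Log2 ratios used the normalised values plus 1. As each group had 1 library, no test was run, and at least 2-fold was the size rule. Intervals are exact (Clopper-Pearson, conditional for ratios) on rounded counts. The calculation was tested on simulated data. The sequences named were all miR-122 sequences, the leading sequence of each listed family and the 5 nearest profiles. The members, lists and rules were chosen with earlier results of these data known, and the comparison of arm pairs and of end marks was added after the data were seen. Alternatives were the pseudocount, the scaling, the filter, summed rows and zebrafish names only. Python 3.11.15, pandas 2.3.3, numpy 2.4.6, scipy 1.17.1 and matplotlib 3.10.9 were used.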

Additional observations from a re-analysis of the deposited data

How the results depend on the processing

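Of 93 recomputed values, 69 stayed within the counting interval or the set limit and 24 moved. The main miR-122 sequence and the summed arms stayed under 2-fold on the log2 scale with each scaling and pseudocount tried. So did the longer 5p form, but without a pseudocount it was 2.00 times control at 12.5 mg/L with equal totals. The alternatives for the longer 5p form were chosen after seeing the data. No paired analysis was possible because each group had 1 library. Equal library totals shift all log2 ratios by 0.04, 0.32 and 0.28 (6.25 against 0, 12.5 against 0 and 12.5 against 6.25 mg/L), and the median of ratios by -0.08, -0.12 and -0.04. In that order the main miR-122 sequence then had 0.43, -0.21 and -0.64 with equal totals (the summed 5p forms 0.43, -0.21 and -0.63) and 0.31, -0.65 and -0.95 with the median of ratios (0.31, -0.65 and -0.95). The liver-linked median at 12.5 against 0 mg/L was 0.22 with equal totals, -0.22 with the median of ratios and 0.053 with no filter. At 12.5 against 6.25 mg/L it was -0.039 with equal totals and 0.0066 with no filter. Summing rows of the same sequence adds both rows of the longer 5p form. Its shares were then 0.170%, 0.171% and 0.394% at 0, 6.25 and 12.5 mg/L. Such a sum is the full count only if the fractions are reads split between the rows. With no filter, which adds scarce sequences, 219, 297 and 272 sequences were at least 2-fold different, where the filtered numbers were 24, 71 and 68. A pseudocount of 10 left 12 at 6.25 against 0 mg/L. Split into higher and lower, the filtered numbers were 12 and 12, 51 and 20, and 52 and 16, and with equal totals 15 and 11, 86 and 10, and 73 and 8. With the median of ratios they were 9 and 15, 45 and 25, and 52 and 18. With zebrafish names only, no 3p sequence and no longer 5p form remain, so their values could not be computed. The few counts of the 3p and longer 5p sequences limit their precision, and no library can show the spread between larvae.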

Other observations

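Leading sequences of tissues outside the gut and its glands give further ratios that need no scaling. Of the 7 leading sequences without a substitution and with a mean of at least 10 normalised reads in the muscle, neuronal and red blood cell families, 5 gave the fewest miR-122 reads relative to them at 12.5 mg/L. Over all 471 sequences, 407 had a higher log2 ratio than miR-122 at 12.5 against 0 mg/L and 449 at 12.5 against 6.25 mg/L. The count of 5 is thus not particular to these tissues. Per 100 reads of miR-133a-3p of muscle there were 16.8 reads of the main miR-122 sequence in control, 21.3 at 6.25 and 11.2 at 12.5 mg/L. Per 100 reads of miR-499-5p, found in heart and slow muscle, the numbers were 569, 550 and 267. For the neuronal miRNAs they were 290, 274 and 131 (miR-124-3p), 43.3, 36.5 and 18.7 (miR-128-3p), and 472, 501 and 265 (miR-137-3p). Per 100 reads of miR-9-5p of neural progenitors they were 9.20, 11.9 and 9.37, and per 100 of miR-144-5p of red blood cells 625, 786 and 713, so that against these the control library was the lowest. The leading sequences of miR-1 and miR-206-3p, both of muscle and both read with a substitution, gave larger differences, with 3895, 4592 and 252 miR-122 reads per 100 for miR-1 and 12353, 17557 and 815 for miR-206-3p. Such substituted forms were themselves higher in the 12.5 mg/L library (log2 ratios to control of 3.41 and 3.38). The muscle list, substituted reads included, had a median log2 ratio of 0.52 at 12.5 against 0 mg/L, with 16 of 18 sequences above 0. The neuronal list had 0.36, with 18 of 26 above 0. Over all 471 sequences the median was 0.08, with 256 above 0. The list medians were 0.83 and 0.68 with equal library totals (0.40 over all 471). With the median of ratios they were 0.40 and 0.24 (-0.03 over all 471). Of the leading sequences without a substitution, miR-133a-3p was at 0.05 and miR-9-5p at -0.56. In the same comparison miR-499-5p, miR-124-3p, miR-128-3p and miR-137-3p were at 0.56, 0.61, 0.68 and 0.30. Ratios between sequences compare reads and not molecules, since sequences differ in how well they are ligated and amplified.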
